A study of Mus musculus with 8 samples.

Results

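The genes described here maintain and transcribe the mitochondrial genome, a small circular DNA (mtDNA) held in every mitochondrion. They were chosen by symbol, with earlier results of these data known, and all 10 were found among the 27179 Entrez genes of the count table. They are Nrf1 and Gabpa, which regulate nuclear genes for mitochondrial proteins, Tfam, Polrmt, Tfb1m and Tfb2m of mitochondrial transcription, Polg, Polg2 and Ssbp1 of mtDNA replication, and the matrix protease Lonp1. RNA-seq was performed on neonatal cardiomyocytes (NCMs) of C57Bl/6J mice, with 4 libraries from offspring exposed in utero to filtered air (FA) and 4 from offspring exposed to diesel exhaust (DE). Dams were exposed from E0.5 to E17.5, and each library was made from the heart of 1 male pup on postnatal day 0. The FA libraries are replicates 2, 3, 4 and 6, and the DE libraries are replicates 1, 3, 5 and 7. No source used here ties pups to litters, so libraries of a group may share a dam, and the p-values below measure only the spread between these libraries. In the sample names, the exposure is followed by 11 for all FA libraries and for DE replicates 1 and 7, and by 12 for DE replicates 3 and 5. What this number, called the prefix below, stands for is not given in the sources used here.

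In each mitochondrion, the single-subunit RNA polymerase encoded by Polrmt starts transcription together with Tfam, a protein that bends and packages mtDNA, and Tfb2m, which opens the promoter. Long transcripts of both mtDNA strands are then cut into the mRNAs, rRNAs and tRNAs of the organelle. Short transcripts from the same polymerase also prime replication by DNA polymerase gamma, built of the catalytic subunit Polg and the accessory subunit Polg2, on DNA covered by the single-stranded binding protein Ssbp1. The heart depends on this machinery because its contraction is fuelled largely by oxidative phosphorylation. The genes are spread over 7 chromosomes of the mm10 build. On the plus strand lie Nrf1 (chr6:30047985-30153458), Ssbp1 (chr6:40471414-40481823) and Gabpa (chr16:84834891-84863783). On the minus strand lie Tfb2m (chr1:179528052-179546305), Polg (chr7:79446231-79467911), Tfam (chr10:71225468-71238328), Polrmt (chr10:79736125-79746604), Polg2 (chr11:106768204-106779537), Tfb1m (chr17:3519250-3557796) and Lonp1 (chr17:56614297-56626903).

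The promoters of these genes are known as sites of shared regulation by Nrf1 and by Gabpa, the DNA-binding subunit of the factor once called NRF-2. RefSeq windows of 250 bases before a transcription start were at hand for all 10 genes on GRCm38.p6. Nrf1 had a pair of windows, and there were 11 in all. The start used need not be the outer end of the gene span given above. The Polg window, chr7:79466224-79466523, lay wholly inside the span of Polg. The Gabpa cores printed below for Tfam, Ssbp1 and Gabpa also lay inside the spans of their genes. The core of the Gabpa site, CCGGAAG on either strand, was found in the windows of 6 genes (Ssbp1, Polg, Tfam, Polrmt, Polg2 and Gabpa itself). It was found in 6.91% of 32851 windows over all genes and in 12.3% of 14487 windows of genes tested here. An Nrf1 core, GCNTGCGC on either strand, was found only in the window of Polrmt among these genes, against 8.3% of all windows and 15.0% of those of tested genes. Of the other cores searched, the Sp1 box GGGCGG was in windows of 7 genes (32.7% of all windows, 55.6% of those of tested genes) and the Yy1 core AAGATGGC in that of Gabpa (1.56% and 1.84%). No match to a core overlapped a match to a different core. The Sp1 matches at -14 and -10 in the Polg window overlapped each other. Each Gabpa or Nrf1 core is printed with the 11 bases of its window on either side, since both factors are themselves among the 10 genes. Each is given 5′ to 3′ on the strand of its gene, the capitals mark the core (read on its reverse strand as CTTCCGG or GCGCATGC), and positions are of its first letter relative to the start.
Tfam, Gabpa core at -47, chr10:71238074-71238102, minus strand: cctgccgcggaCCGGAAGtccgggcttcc
Polrmt, Gabpa core at -43, chr10:79746607-79746635, minus strand: ccctaagagcgCTTCCGGcagtcgcagaa
Polrmt, Nrf1 core at -133, chr10:79746696-79746725, minus strand: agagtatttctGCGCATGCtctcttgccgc
Polg, Gabpa core at -38, chr7:79466294-79466322, minus strand: gaggacctcacCCGGAAGtccctctgcac
Polg2, Gabpa core at -29, chr11:106779549-106779577, minus strand: cgggtgacgctCTTCCGGgggcgtggtct
Ssbp1, Gabpa core at -47, chr6:40471410-40471438, plus strand: ggctccgtgcgCCGGAAGcgagccgctgg
Gabpa, Gabpa core at -93, chr16:84835020-84835048, plus strand: gagggtaagtgCTTCCGGgtccctcagct
These matches are descriptions of letters in a window, and whether a factor was bound there was not measured.

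The libraries held between 17943024 and 39839737 counts. As a check of the labelled cell type, marker genes of ventricular cardiomyocytes exceeded every other marker list in every library. They summed to 77882 to 82740 CPM (counts scaled to library size with TMM factors) in FA libraries and 65783 to 76431 CPM in DE libraries, and 3 of 11 were called, 2 lower and 1 higher, beside 5.8% called over all tested genes. Marker genes of fibroblasts summed to 1373 to 2602 CPM in FA and 2520 to 4163 CPM in DE, with 7 of 7 at a higher fitted level in DE and 2 called. Marker genes of dividing cells summed to 499 to 721 CPM in FA and 719 to 908 CPM in DE, with 7 of 7 higher and 3 called. The other lists held no call for endothelial cells (0 of 7), smooth muscle and pericytes (0 of 6) or leukocytes (0 of 4 tested). Of erythroid genes 1 of 6 tested was called, higher in DE, and of brown adipocyte genes 1 of 2 tested, lower in DE. The brown adipocyte list (Ucp1, Cidea, Adipoq, Plin1 and Elovl3) summed to 14.5 to 19.7 CPM in FA and 8.47 to 11.2 CPM in DE. Of it, Adipoq, Plin1 and Elovl3 averaged between 0 and 0.103 CPM in each group. The median log2 fold change, DE over FA, of the 11 cardiomyocyte markers was -0.07, with 9 fitted lower and 2 higher. The part of these markers in the results below was not tested. In RNA from whole cell pellets, fewer cells of a type, less RNA per cell and a change of single marker genes cannot be told apart.

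In utero exposure to DE was accompanied by a lower level of 1 of the 10 genes, Polrmt, while 9 did not pass the test. Calls required a Benjamini-Hochberg adjusted p of at most 0.05, over all tested genes, and a level at least 25% above that of the lower group, by the quasi-likelihood test of edgeR. All 10 genes passed the filter on low counts, none only through 1 group. By this rule 868 of 14966 tested genes, 5.8%, were called over the whole table, so that 1 call among 10 genes (10%) is near the background. The median log2 fold change, DE over FA, was -0.03 over the 10 genes and 0.0037 over all tested genes, with 8 of the 10 fitted lower and 2 higher in DE. For 2 genes, Polrmt and Tfb2m, no DE library overlapped the FA libraries in CPM, against 14.7% of all tested genes. For 7 genes the 95% confidence interval of the change lay within the 25% difference of a call in either direction, from a fall of no more than 19.6% to a rise of no more than 24.7%.

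**Figure D1:**
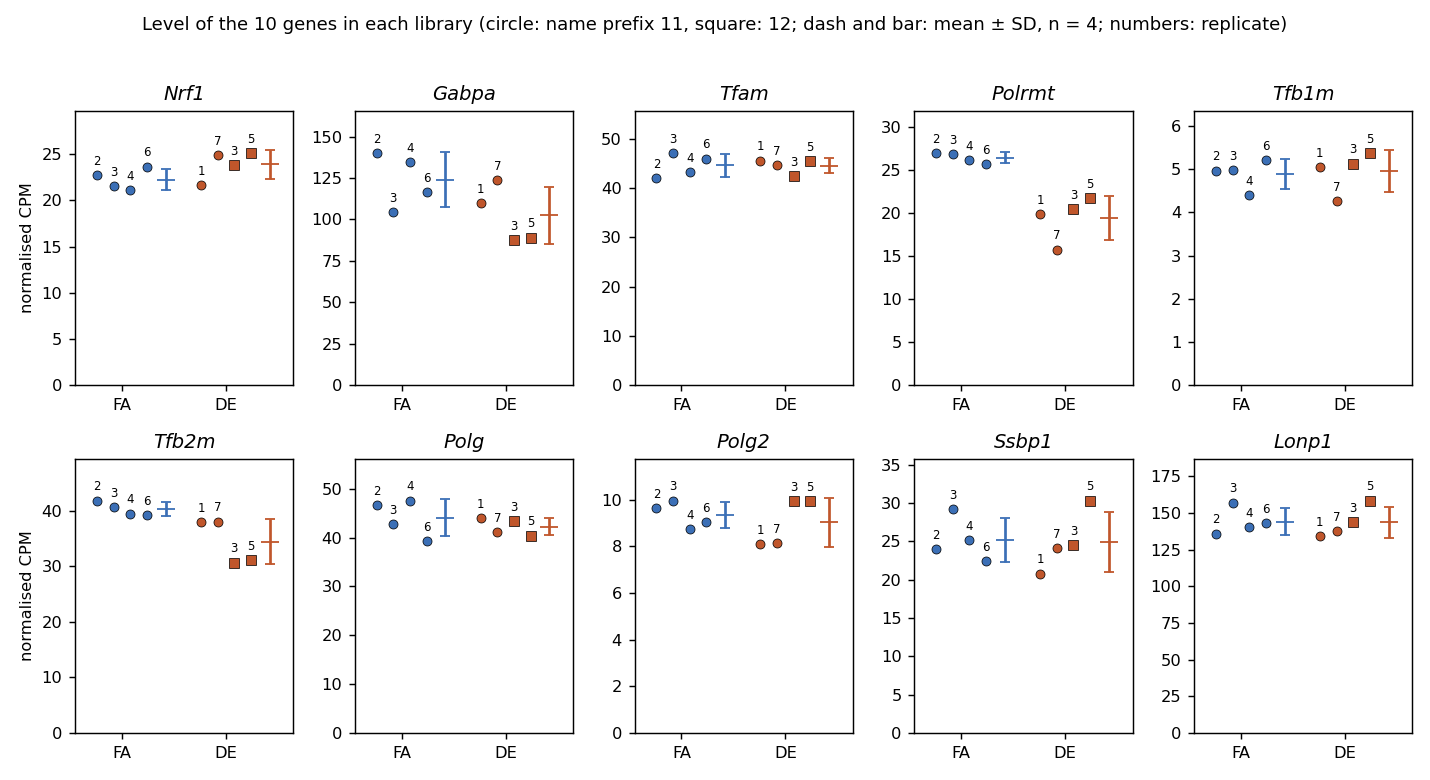
Normalised CPM (y axis, from 0) of each of the 10 genes in the 4 FA and 4 DE libraries, with replicate numbers above the points and the mean ± SD beside them. Polrmt lies between 25.6 and 27.0 CPM in FA and between 15.7 and 21.7 CPM in DE, with no overlap, while Tfam spans 41.9 to 47.1 CPM over both groups.

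Levels can be compared between genes only per length of transcript, and here as CPM per kilobase of the median length of GENCODE basic transcripts. On this scale Tfam (49.5 ± 2.7, SD, n = 4) and Lonp1 (48.8 ± 3.1) were the most abundant in FA NCMs, and their ranges over libraries overlapped. Gabpa (34.5 ± 4.6), Ssbp1 (22.4 ± 2.6), Tfb2m (16.5 ± 0.50), Nrf1 (10.9 ± 0.57) and Polrmt (7.23 ± 0.17) followed, each apart from its neighbours. Polg2 (6.21 ± 0.37) and Polg (5.63 ± 0.49) overlapped, and Tfb1m (3.49 ± 0.25) was the lowest. In DE NCMs the mean level per kilobase of Polrmt was 5.33 ± 0.71, and its range overlapped those of Polg2 (5.99 ± 0.69) and Polg (5.39 ± 0.22). The order depends on the transcript for genes with long and short forms. With the longest form, Tfam would be at 10.7 CPM per kilobase and Ssbp1 at 5.73 in FA.

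Nrf1 encodes a transcription factor that activates nuclear genes of the respiratory chain and of mtDNA upkeep, and it is distinct from the stress factor Nfe2l1 that shares its alias. Its level was 22.8, 21.5, 21.1 and 23.6 CPM in FA replicates 2, 3, 4 and 6 and 21.7, 23.8, 25.1 and 24.9 CPM in DE replicates 1, 3, 5 and 7. DE replicates 3, 5 and 7 lay above all FA libraries, replicate 3 by the least, and DE replicate 1 lay among them. This gave a log2 fold change of 0.10 ± 0.10 (SE), with an adjusted p of 0.530 and a 95% confidence interval from -7.2% to 24.1%.

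Gabpa encodes the ETS-family subunit that binds DNA in the GA-binding protein complex, whose activating subunits are Gabpb1 and Gabpb2. Its level was 140, 104, 135 and 117 CPM in FA replicates 2, 3, 4 and 6 and 110, 87.5, 89.1 and 124 CPM in DE replicates 1, 3, 5 and 7. The lowest values were those of DE replicates 3 and 5, the libraries with prefix 12, and the groups overlapped. The log2 fold change was -0.28 ± 0.14 (SE), with an unadjusted p of 0.0693 and an adjusted p of 0.231 by the quasi-likelihood test. Among the prefix 11 libraries alone it was -0.09 with an adjusted p of 0.812.

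Levels of long transcripts as a class also differed between libraries. The median deviation of 1387 genes with transcripts of at least 5748 bases was 0.30 and 0.27 (log2) in FA replicates 2 and 4 and -0.02 and -0.12 in FA replicates 6 and 3, the same order as Gabpa. It was 0.10 and 0.08 in DE replicates 7 and 1 and -0.292 and -0.255 in DE replicates 5 and 3, which Gabpa has in the reverse order. Gabpa, with basic transcripts of 2202 to 4987 bases, is itself outside this class. The part of long transcripts in the level of Gabpa was not tested. Offsets that take out each library's trend with length and GC content gave Gabpa a log2 fold change of -0.20 and an adjusted p of 0.135. Exons of Gabpa overlap those of Atp5j on the opposite strand, and the strand setting of the counting is not given in the sources used here. Atp5j, a subunit of ATP synthase, was at 487 ± 67 CPM in FA and 494 ± 92 in DE.

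Tfam encodes the high-mobility-group protein that coats mtDNA and activates its promoters, and its level is often used as a gauge of mtDNA content. It was 41.9, 47.1, 43.2 and 45.9 CPM in FA replicates 2, 3, 4 and 6 and 45.5, 42.3, 45.4 and 44.6 CPM in DE replicates 1, 3, 5 and 7. All DE libraries lay within the FA range. DE and FA differed by a log2 fold change of -0.0014 ± 0.086 (SE) with an adjusted p of 0.994, and the 95% confidence interval ran from -12.3% to 13.9%.

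Polrmt encodes the mitochondrial RNA polymerase, which makes every mtDNA transcript and the primers for mtDNA replication. Its basic transcripts are 3535 and 3755 bases long, with a median length of 3645 bases, and the shorter has a GC content of 60.7%. Its level was 27.0, 26.8, 26.1 and 25.6 CPM in FA replicates 2, 3, 4 and 6 and 19.8, 20.4, 21.7 and 15.7 CPM in DE replicates 1, 3, 5 and 7. Every DE library lay below every FA library, DE replicate 7 the furthest. The FA libraries differed among themselves with a coefficient of variation of 2.37%, and the DE libraries with 13.3%. Marker genes of cardiomyocytes summed to 66514, 65783, 76431 and 66758 CPM in the same DE libraries. As for Polrmt, every DE library lay below every FA library in that sum and DE replicate 5 was the highest of DE. The lowest sum was in DE replicate 3 and the lowest Polrmt in DE replicate 7, and FA replicate 6 had the highest sum and the least Polrmt of FA. Their part in the difference was not tested. Behind the values of Polrmt stood between 295 counts in DE replicate 7 and 1009 in FA replicate 2.

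In DE NCMs Polrmt fell by 26.2% (95% confidence interval from -37.7% to -12.6%), a log2 fold change of -0.44 ± 0.11 (SE) with an adjusted p of 0.0443 by the quasi-likelihood test. The gene kept its direction under 20 of 20 alternatives, from -0.57 to -0.36, and was called under 8 of them. With the name prefix added to the model, the log2 fold change was -0.56 with an adjusted p of 0.0330. Among the prefix 11 libraries alone (4 FA, 2 DE) it was -0.57 with an adjusted p of 0.0553, and with length and GC offsets it was -0.54 with an adjusted p of 0.00332. The call was lost on leaving out any 1 of FA replicates 2, 3, 4 and 6 or DE replicates 1, 3 and 7, with log2 fold changes from -0.46 to -0.36 and adjusted p from 0.0549 to 0.127. It remained without DE replicate 5 (-0.50, adjusted p of 0.0484). It was also lost with upper quartile factors (adjusted p of 0.0638), scaling by library totals (0.0788), without a filter on low counts (0.0569) and the 25% difference built into the test (0.530).

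**Figure D2:**
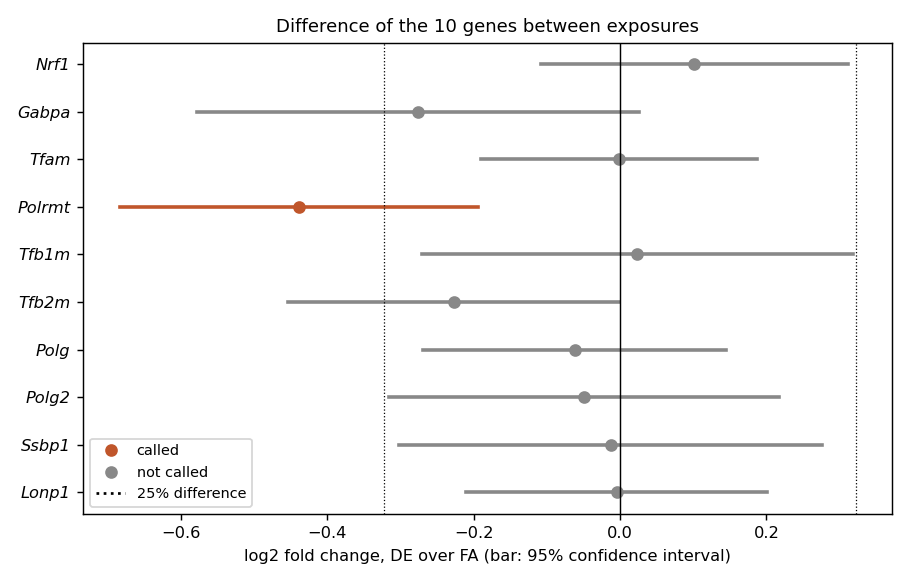
Log2 fold change, DE over FA (x axis), of each of the 10 genes with its 95% confidence interval, beside dotted lines at a 25% difference. Only the interval of Polrmt, centred at -0.44, belongs to a called gene, and 7 intervals lie wholly between the dotted lines.

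Polrmt was also compared with its partners within each library, as a description. Polrmt counts per Tfam count were 0.643, 0.569, 0.604 and 0.558 in FA replicates 2, 3, 4 and 6 and 0.435, 0.482, 0.478 and 0.352 in DE replicates 1, 3, 5 and 7. Those ranges did not overlap, and the ratio needs no scaling between libraries. Polrmt counts per Tfb2m count overlapped, from 0.644 to 0.661 in FA and from 0.413 to 0.697 in DE. In DE replicates 3 and 5, where Tfb2m was also at its lowest, that ratio was 0.666 and 0.697, and in DE replicates 1 and 7 it was 0.521 and 0.413.

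The genes whose profile over the 8 libraries was nearest to Polrmt were sought among 9189 tested genes that averaged 10 CPM or more. The measure was the root mean square difference of log2 CPM centred on each gene's mean. Tmem94, a multipass membrane protein, was nearest at 0.0428, with 108 CPM in FA and 79.3 in DE. Rmc1 followed at 0.0659 (34.9 and 24.6 CPM) and Fam53b at 0.0708 (23.9 and 18.04 CPM). Their log2 fold changes were -0.44, -0.50 and -0.40.

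Tfb1m and Tfb2m arose from a bacterial rRNA methyltransferase. Tfb2m acts as the transcription initiation factor of Polrmt, and Tfb1m methylates the small rRNA of the mitochondrial ribosome. The level of Tfb2m was 41.8, 40.6, 39.5 and 39.2 CPM in FA replicates 2, 3, 4 and 6 and 38.0, 30.6, 31.2 and 38.0 CPM in DE replicates 1, 3, 5 and 7. All DE libraries lay below all FA libraries, though DE replicates 1 and 7 by only about 1 CPM, and the prefix 12 libraries DE replicates 3 and 5 lay well below the rest. The log2 fold change was -0.23 ± 0.10 (SE), with an unadjusted p of 0.0491 and an adjusted p of 0.193, and it was not called. Among the prefix 11 libraries alone it was -0.09 with an adjusted p of 0.750.

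The coding sequence of Tfb2m is 99.3% identical over 1187 bases to the pseudogene Gm1818 on chromosome 12, and how reads that map to both were counted is not given in the sources used here. Gm1818 was at 8.31 ± 0.41 CPM in FA and 6.67 ± 1.00 in DE (SD, n = 4), a log2 fold change of -0.32 with an adjusted p of 0.166. Its lowest libraries, at 5.65 and 6.06 CPM, were DE replicates 3 and 5, as for Tfb2m.

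Tfb1m was the least abundant of the 10 genes, with 78 to 216 counts a library. Its level was 4.97, 4.98, 4.40 and 5.21 CPM in FA replicates 2, 3, 4 and 6 and 5.05, 5.13, 5.38 and 4.26 CPM in DE replicates 1, 3, 5 and 7. The groups overlapped over nearly their whole range, with a log2 fold change of 0.02 ± 0.13 (SE) and an adjusted p of 0.931. Its exons overlap those of Tiam2 on the opposite strand, which was at 9.20 ± 0.52 CPM in FA and 9.82 ± 1.7 in DE.

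**Figure D3:**
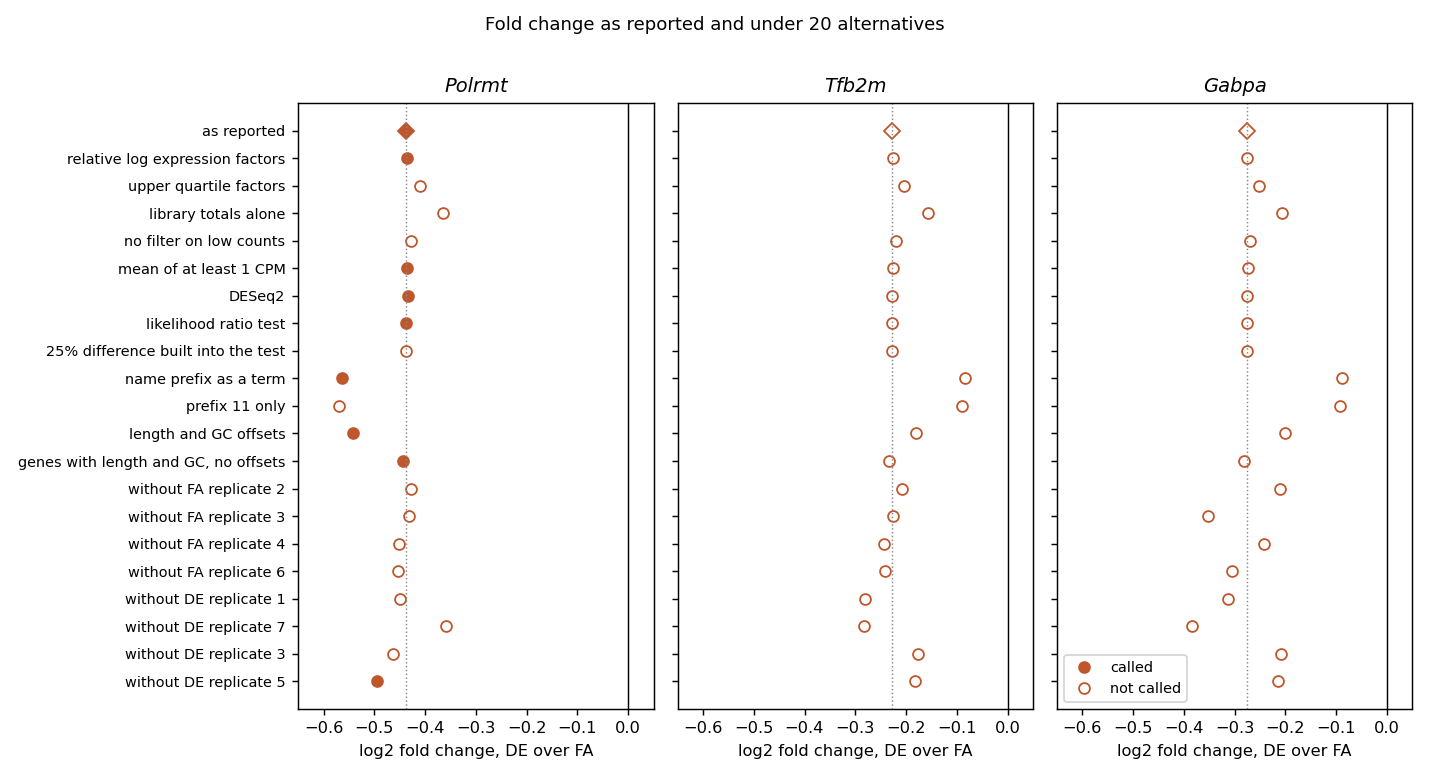
Log2 fold change, DE over FA (x axis), of Polrmt, Tfb2m and Gabpa as reported (diamond) and under 20 alternatives (circles, filled where the gene was called). Polrmt is furthest from 0 at -0.57 in the prefix 11 libraries alone, where Tfb2m and Gabpa are both at -0.09.

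Polg encodes the catalytic subunit of the replicative mtDNA polymerase, whose proofreading defect gives mice an mtDNA mutator phenotype. It was at 46.7, 42.7, 47.6 and 39.3 CPM in FA replicates 2, 3, 4 and 6 and 44.1, 43.4, 40.4 and 41.1 CPM in DE replicates 1, 3, 5 and 7. All DE libraries lay within the FA range. The log2 fold change was -0.06 ± 0.09 (SE) with an adjusted p of 0.711. Exons of Polg overlap those of Fanci on the opposite strand. Fanci, a DNA crosslink repair gene, was called, at 9.12 ± 1.1 CPM in FA and 12.9 ± 0.79 in DE with an adjusted p of 0.0356.

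Polg2, the processivity subunit, was at 9.65, 9.96, 8.74 and 9.04 CPM in FA replicates 2, 3, 4 and 6 and 8.10, 9.92, 9.92 and 8.15 CPM in DE replicates 1, 3, 5 and 7. The DE libraries split by prefix, with replicates 3 and 5 within the FA range and replicates 1 and 7 below it. The log2 fold change was -0.05 ± 0.12 (SE) with an adjusted p of 0.83. Exons of Polg2 overlap those of Milr1 on the opposite strand, and Milr1 was at 0.181, 0.745, 1.30 and 0.32 CPM in DE replicates 1, 3, 5 and 7. Its highest levels were thus in DE replicates 3 and 5, where Polg2 was also higher, and its part in the Polg2 count was not tested. Polg counts per Polg2 count averaged 4.73 ± 0.54 in FA and 4.73 ± 0.62 in DE (SD, n = 4).

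Ssbp1, whose product coats single-stranded mtDNA at the replication fork, was at 23.9, 29.2, 25.2 and 22.4 CPM in FA replicates 2, 3, 4 and 6 and 20.8, 24.5, 30.3 and 24.1 CPM in DE replicates 1, 3, 5 and 7. The highest and the lowest libraries were both DE. Its log2 fold change was -0.01 ± 0.13 (SE) with an adjusted p of 0.964. A processed pseudogene, Gm12115, is 97.3% identical to its coding sequence over 410 bases and held 28 counts over all libraries.

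Lonp1 encodes the ATP-dependent Lon protease of the matrix, which degrades Tfam and oxidised proteins. It was at 136, 157, 140 and 143 CPM in FA replicates 2, 3, 4 and 6 and 134, 144, 158 and 137 CPM in DE replicates 1, 3, 5 and 7. The groups overlapped almost entirely. Its log2 fold change was -0.0047 ± 0.094 (SE) with an adjusted p of 0.981, and the 95% confidence interval ran from -13.6% to 15.0%. Lonp1 counts per Tfam count averaged 3.23 ± 0.090 in FA and 3.23 ± 0.26 in DE.

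The products of this machinery were read from the 13 mRNAs encoded in mtDNA, all subunits of respiratory complexes or ATP synthase. They took 11.2%, 11.9%, 10.1% and 12.4% of the counts of FA replicates 2, 3, 4 and 6 and 10.6%, 10.1%, 11.5% and 10.6% of those of DE replicates 1, 3, 5 and 7. The means were 11.4% ± 1.0 in FA and 10.7% ± 0.56 in DE (SD, n = 4). The difference of -0.72 percentage points was not larger than the spread between libraries (exact two-sided permutation test, p = 0.314, where the smallest p the design allows is 0.0286). DE replicate 7, the library with the least Polrmt, had the same share as DE replicate 1 to within 0.1 percentage points. DE replicate 5 had both the most Polrmt (21.7 CPM) and the highest share of DE. DE replicate 3, next in Polrmt (20.4 CPM), had the lowest share of DE. A relation between Polrmt and the share was not tested. The libraries were selected for poly-A, so these values count polyadenylated transcripts, and mtDNA content is not analysed here. With the TMM-scaled total as denominator the difference was -1.26 points (p = 0.143, exact permutation test). With 1 library left out, by the same exact permutation test, it ran from -1.15 points without FA replicate 4 (p = 0.0857) to -0.38 without FA replicate 6 (p = 0.514).

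None of the 13 mRNAs was called by the quasi-likelihood test. At an unadjusted p under 0.05 there were 3, all lower in DE, beside 25.6% of all tested genes. DESeq2 called 3, where it called 10.9% of all tested genes. The median log2 fold change was -0.12, with 9 lower and 4 higher. ATP8, a small subunit of ATP synthase, had the lowest fold change, -0.54 ± 0.16 (SE) with an adjusted p of 0.0770. ND3 of complex I had the highest, 0.19 ± 0.15 with an adjusted p of 0.440.

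For 2 of the 13 mRNAs, ND4 and ND5 of complex I, the CPM ranges were apart, near the 14.7% of all tested genes, and these were singled out after their values were seen. ND4 was at 12711, 12988, 11206 and 13831 CPM in FA replicates 2, 3, 4 and 6 and 9593, 9220, 11150 and 8969 CPM in DE replicates 1, 3, 5 and 7, and its log2 fold change was -0.38 ± 0.11 with an adjusted p of 0.0612. ND5 was at 10465, 8353, 9069 and 9858 CPM in FA and 8150, 5657, 6349 and 7618 CPM in DE in the same order, with -0.44 ± 0.13 and an adjusted p of 0.0694. Both were called under 4 of 20 alternatives. Among the prefix 11 libraries neither was called, with ND5 at -0.26 (adjusted p of 0.374) and ND4 at -0.46 (adjusted p of 0.119). The reading frames of ATP8 and ATP6 and of ND4L and ND4 overlap on shared transcripts, so reads there could be split between them. ND4L was at 15.9 ± 1.6 CPM in FA beside 12684 ± 1094 for ND4.

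**Figure D4:**
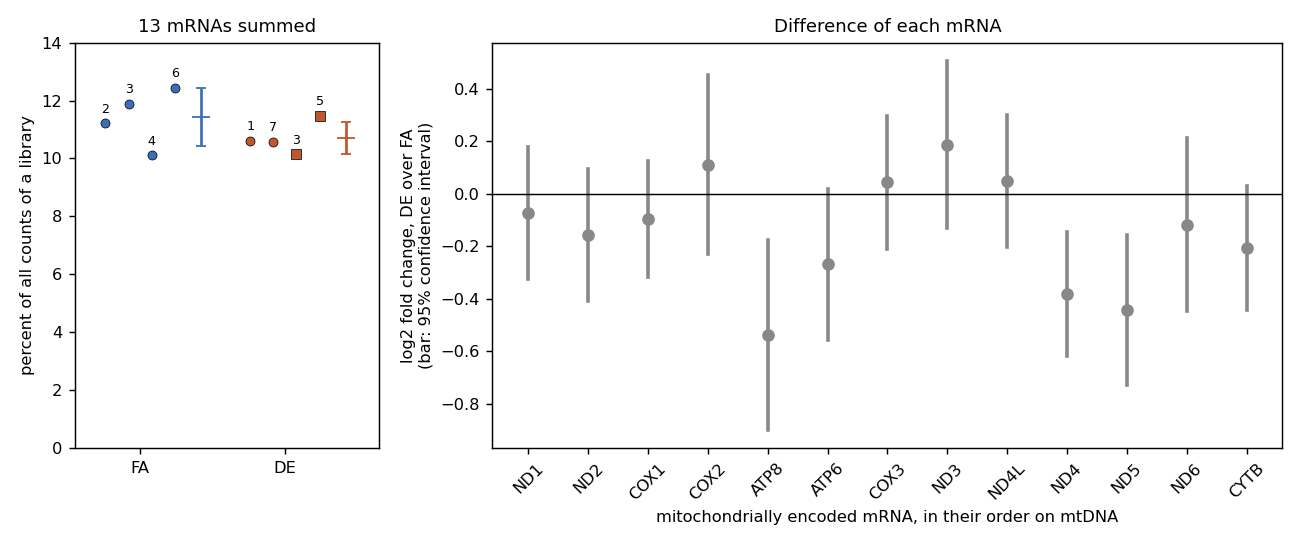
Left, percent of each library's counts (y axis, from 0) in the 13 mitochondrially encoded mRNAs, with mean ± SD beside the points. Right, log2 fold change, DE over FA (y axis), of each mRNA with its 95% confidence interval, in the order of the genes on mtDNA, from -0.54 for ATP8 to 0.19 for ND3.

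The other nuclear genes of the pathway were described through 6 lists of 104 genes in all, each of which passed the filter on low counts. Of these 104 genes, 7 were called (6.73%, beside 5.8% of all tested genes), 4 lower and 3 higher in DE. The median log2 fold change was -0.11, with 69 genes fitted lower and 35 higher. At an unadjusted p under 0.05 there were 23, below the share of 25.6% among all tested genes. The 7 calls each kept their direction under 20 of 20 alternatives. Without FA replicate 2 or FA replicate 4 no gene of the lists was called, without DE replicate 3 only Rrm1 was, and without DE replicate 5 or DE replicate 7 there were 4.

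Among 18 genes of mtDNA replication, repair and the nucleoid, 1 fell, 1 rose and 16 were not called, with a median of 0.14 (13 of 18 higher). The median was 0.03 (10 of 18 higher) with length and GC offsets and 0.10 (10 of 18 higher) in the prefix 11 libraries. The called share was 11.1%, beside 5.8% of all tested genes. Lig3, whose mitochondrial form is the DNA ligase of the organelle, was at 39.5 ± 3.7 CPM in FA and 26.4 ± 4.4 in DE, a log2 fold change of -0.58 ± 0.13 with an adjusted p of 0.0266. Its libraries did not overlap, though it was not called with the prefix in the model (-0.42, adjusted p of 0.109) or in the prefix 11 libraries (-0.43, adjusted p of 0.150). Fen1, a flap endonuclease of nuclear and mitochondrial DNA, rose from 12.0 ± 1.7 to 17.48 ± 1.4 CPM, with 0.54 ± 0.12 and an adjusted p of 0.0313. Fen1 was called under 11 of 20 alternatives, and not with the prefix in the model (0.47, adjusted p of 0.104) or in the prefix 11 libraries (0.47, 0.157). Twnk, the mtDNA helicase, named for its role, was at 27.6 ± 1.8 CPM in FA and 24.7 ± 2.2 in DE with an adjusted p of 0.351.

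Of 16 genes that supply nucleotides for mtDNA, 2 rose, 1 fell and 13 were not called. The called share was 18.8%, beside 5.8% of all tested genes, and the median was 0.05 (7 of 16 lower). That median changed sign, to -0.08 (11 of 16 lower) with length and GC offsets and -0.05 (10 of 16 lower) in the prefix 11 libraries. The risers were the subunits of the ribonucleotide reductase of dividing cells. Rrm1 was at 88.1, 86.3, 100 and 108 CPM in FA replicates 2, 3, 4 and 6 and 147, 132, 130 and 149 CPM in DE replicates 1, 3, 5 and 7, and Rrm2 rose from 72.3 ± 14 to 115 ± 6.1 CPM. Their log2 fold changes were 0.55 ± 0.10 and 0.68 ± 0.13, with adjusted p of 0.0156 and 0.0169. With the prefix in the model Rrm1 was at 0.63 (adjusted p of 0.0141) and in the prefix 11 libraries at 0.63 (0.0330), called in both. Rrm2 was at 0.61 (0.0551) and 0.60 (0.0900), called in neither. Whether the genes differ in this was not tested. Rrm2b, the subunit used outside of S phase, was at 39.95, 29.7, 39.5 and 34.2 CPM in FA and 27.6, 24.4, 24.5 and 28.3 CPM in DE in the same order, with -0.45 ± 0.12 and an adjusted p of 0.0453. It was called under 9 of 20 alternatives, and not with the prefix in the model (-0.36, adjusted p of 0.176) or in the prefix 11 libraries (-0.37, 0.225). Beside Rrm1, Rrm2 and Fen1 stand the marker genes of dividing cells given above, of which Cdk1, Aurkb and Bub1 were called higher, and their part in these rises was not tested.

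No gene of transcription elongation and termination was called (0 of 7 by the quasi-likelihood test, also 0 at an unadjusted p under 0.05, beside 25.6% of all tested genes). The smallest p was that of Mterf1a, a termination factor, at 0.663 ± 0.15 CPM in FA and 0.946 ± 0.14 in DE with an adjusted p of 0.215. Tefm, the elongation factor of Polrmt, named for its role, was at 8.14 ± 0.61 CPM in FA and 7.76 ± 1.2 in DE with an adjusted p of 0.797. Mterf1a and Mterf1b are near-identical genes whose reads could be split between them.

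Of 27 genes of mitochondrial RNA processing, modification and decay, 23 were fitted lower in DE and 4 higher, with a median of -0.17, and 1 was called (3.7%, beside 5.8% of all tested genes). Of all tested genes 49.5% were fitted lower. With library totals alone the median of the list was -0.10 (20 of 27 lower, 0 called), and that of all tested genes was 0.075. The list median was -0.15 (22 of 27 lower) with length and GC offsets and -0.17 (22 of 27 lower) in the prefix 11 libraries. At an unadjusted p under 0.05 there were 6 of the 27, beside 25.6% of all tested genes, and for 8 the CPM ranges of the groups were apart, beside 14.7%. Fastkd1, an RNA-binding protein of the FASTK family, was at 27.4 ± 4.6 CPM in FA and 18.7 ± 1.7 in DE, a log2 fold change of -0.54 ± 0.13 with an adjusted p of 0.0403. Its groups overlapped in 1 FA library. Fastkd1 was called under 10 of 20 alternatives, and not with the prefix in the model (-0.62, adjusted p of 0.0661) or in the prefix 11 libraries (-0.63, 0.0907), where its fold change was larger. Lrpprc, which stabilises mitochondrial mRNAs, was named for its role and was at 285 ± 14 CPM in FA and 232 ± 21 in DE, with -0.30 ± 0.096 and an adjusted p of 0.0872.

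The list around Nrf1 and Gabpa holds 18 partners, coactivators and other regulators, among them the corepressors Ncor1 and Nrip1 and the factors Nfe2l2, Myc and Ppara. Of these 18 genes, 16 were fitted lower (49.5% among all tested genes) and 2 higher, with a median of -0.22, and 1 was called (5.56%, beside 5.8%). Ppargc1b, the coactivator PGC-1β, was at 36.7, 27.1, 37.2 and 22.9 CPM in FA replicates 2, 3, 4 and 6 and 20.5, 17.3, 18.9 and 16.5 CPM in DE replicates 1, 3, 5 and 7. It fell by 40.9%, a log2 fold change of -0.76 ± 0.16 with an adjusted p of 0.0224, and it is a gene that the study picked from these libraries, so it is no independent evidence. With the prefix in the model the log2 fold change of Ppargc1b was -0.74 (adjusted p of 0.0679) and in the prefix 11 libraries it was -0.75 (0.0939), both about as large and neither called. Ppargc1a, the coactivator PGC-1α that acts with Nrf1, was named for its role and was at 198 ± 26 CPM in FA and 166 ± 36 in DE with an adjusted p of 0.310. The activating partners of Gabpa, Gabpb1 and Gabpb2, had log2 fold changes of 0.12 and -0.29 with adjusted p of 0.570 and 0.264. Ncor1, named for its role, was at 231, 160, 227 and 168 CPM in FA replicates 2, 3, 4 and 6 and 176, 131, 134 and 179 CPM in DE replicates 1, 3, 5 and 7, with -0.35 and an adjusted p of 0.191. It was high in FA replicates 2 and 4 and low in DE replicates 3 and 5, as were long transcripts as a class. The other corepressor, Nrip1, had these same libraries at its ends, at 35.5 and 36.7 CPM in FA replicates 2 and 4 and 8.40 and 7.23 CPM in DE replicates 3 and 5, with -0.74 and an adjusted p of 0.288. The median of the list was -0.19 (15 of 18 lower) with offsets for length and GC content and -0.13 (14 of 18 lower) in the prefix 11 libraries. The part of long transcripts in the shift of the list was not tested.

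None of 18 matrix proteases and chaperones beside Lonp1 was called by the quasi-likelihood test (4 at an unadjusted p under 0.05, beside 25.6% of all tested genes), and their median was -0.09. Afg3l2, a subunit of the m-AAA protease of the inner membrane, had the smallest p. It was at 181 ± 7.0 CPM in FA and 148 ± 8.6 in DE with no overlap, -0.29 ± 0.087 with an adjusted p of 0.0744.

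**Figure D5:**
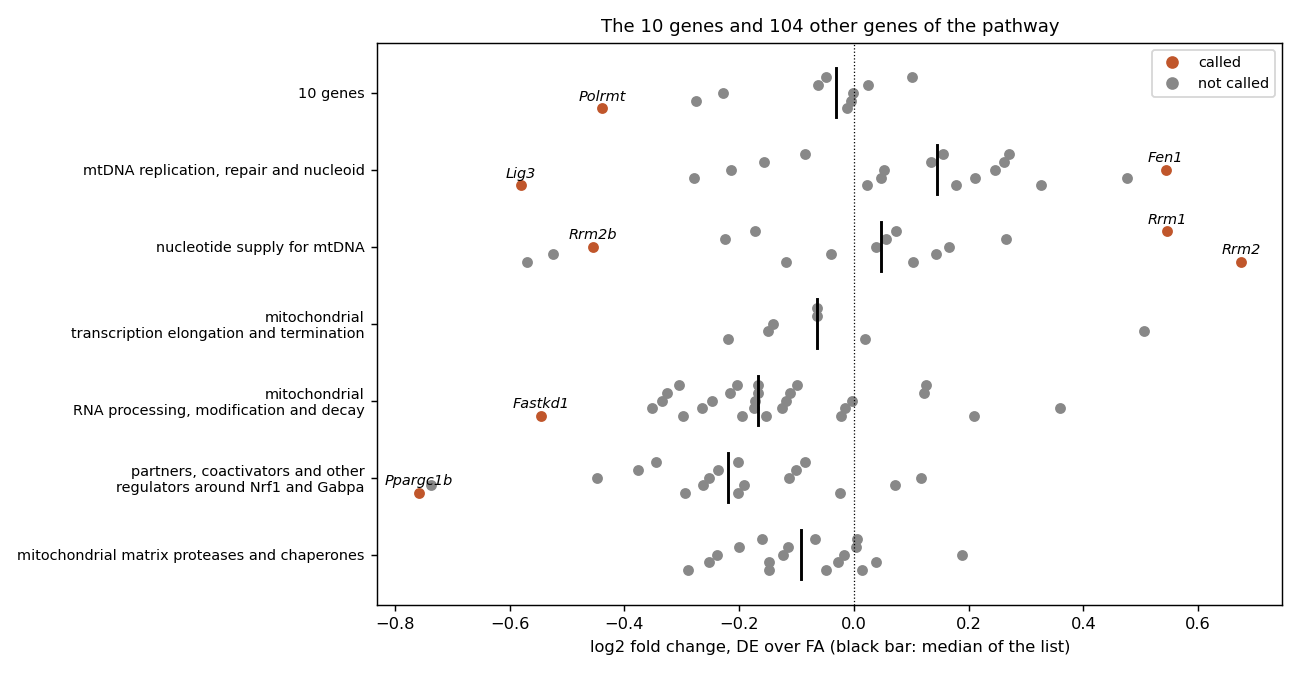
Log2 fold change, DE over FA (x axis), of the 10 genes and of the 104 other genes in 6 lists (rows), 1 point a gene, with the median of each row as a black bar and the called genes in colour with their names. The points spread from -0.76 for Ppargc1b to 0.68 for Rrm2, and the medians run from -0.22 to 0.14.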

How the data were processed

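RNA from NCMs was made into stranded poly-A libraries by the authors, who aligned reads to mm10 with TopHat, marked duplicates with Picard without removing them, recalibrated with GATK and ran featureCounts. The deposited table holds their raw counts for each Entrez gene, not normalised. The counting annotation, strand setting and treatment of multiply mapped reads are not given in the sources used here. Duplicates that remain overstate counting precision. The methods state fewer libraries a group than the table holds, and all 8 were used. Symbols were matched for 25275 of 27179 genes.

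Totals ran from 17943024 to 39839737 counts. Genes passing filterByExpr (minimum count of 10) were scaled by TMM and tested with edgeR 4.0.16 (glmQLFit, glmQLFTest) under R 4.3.3, with no term besides exposure. The biological coefficient of variation was 15.95%. The code was tested on simulated data. The share of mitochondrial counts was compared by an exact permutation test. Coding sequences were compared with blastn 2.17.0, and transcript lengths came from GENCODE M21. The alternatives tried included DESeq2 1.42.0, the likelihood ratio test of edgeR, the 25% difference built into the test, other scalings and filters, the name prefix, length and GC offsets (with lengths for 92.55% of tested genes), and each library left out. Fits on genes with known length and GC content without offsets were added after the data were seen.

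The members and lists were chosen with earlier results of these data known. Named genes are all 10 members, the called genes and the gene with the smallest p in each list, the extremes of the mitochondrial mRNAs and the 3 nearest profiles to the member with the smallest p. Genes named for their role or singled out otherwise are marked so.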

Additional observations from a re-analysis of the deposited data

How the results depend on the processing

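Polrmt, Gabpa, Tfb2m and Nrf1 kept their direction under 20 of 20 alternatives. The other 6 genes, each with an adjusted p above 0.7, changed sign under some. Tfam became 0.00088 with relative log expression factors, 0.022 with upper quartile factors, 0.069 with library totals alone, 0.0079 with no filter on low counts, 0.00013 with a mean of at least 1 CPM, 0.0017 with DESeq2, 0.018 with the name prefix as a term and 0.013 with prefix 11 only. Tfb1m became -0.064, -0.069 and -0.034 with the prefix as a term, prefix 11 only and length and GC offsets. With library totals alone, which moved the median of all genes to 0.075, Polg was at 0.010, Polg2 at 0.024, Ssbp1 at 0.057 and Lonp1 at 0.066. Length and GC offsets put Polg at 0.099. Upper quartile factors put Ssbp1 at 0.014 and Lonp1 at 0.021, and no filter put Lonp1 at 0.0055. With 1 library left out, Tfam ran from -0.031 to 0.025, Tfb1m from -0.029 to 0.078, Ssbp1 from -0.12 to 0.065 and Lonp1 from -0.056 to 0.037.

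The calls among the 10 genes became 0 with upper quartile factors, library totals, no filter, the 25% difference built into the test and prefix 11 only, and ran from 0 to 1 with 1 library left out. Calls in the 104 genes of the lists, 7 as reported, became 0 with the 25% difference built in, 1 with the prefix as a term, 1 with prefix 11 only and 12 with length and GC offsets, and ran from 0 to 7 with 1 library left out. Calls among the 13 mitochondrial mRNAs, 0 as reported, became 3 with DESeq2, 3 with the likelihood ratio test and 3 with offsets, and ran from 0 to 2 with 1 library left out. Calls over all genes, 868 as reported, became 1633 with DESeq2, 1603 with the likelihood ratio test, 114 with the 25% difference built in, 448 with the prefix as a term, 260 with prefix 11 only and 1550 with offsets, and ran from 237 (without FA replicate 4) to 1168 (without DE replicate 1) with 1 library left out. Library totals alone gave 217 lower and 803 higher calls in place of 332 and 536. The cause of these differences was not tested. No paired analysis was made, because no source used here pairs a DE library with an FA library.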
